A study of Mus musculus with 8 samples.

Results

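The genes described here are 10 genes of muscle protein loss: the RING-type ubiquitin ligases *Trim63* (MuRF1), *Trim54* (MuRF3) and *Trim55* (MuRF2), the F-box ligase subunits *Fbxo32* (atrogin-1), *Fbxo30* and *Fbxo40*, the forkhead factors *Foxo1*, *Foxo3* and *Foxo4*, and the secreted ligand *Mstn* (myostatin). Every spot of the array that carries 1 of these gene names was taken, which gave 17 of 56605 probes. Of the 17, 16 were well above background on at least 4 of 8 arrays and were tested, among 33819 tested probes in all. The second probe of *Foxo4* (A_55_P2113031) was above background on no array and has no difference to report. None of the 17 probes was saturated on any array.

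The arrays held total RNA from C57BL/6J mice, 12 weeks old and male by the paper, taken 18 h after an intravenous injection of 100 μL. The 4 Co mice received saline. The 4 Pg mice received sonicated *P. gingivalis*, a periodontal bacterium, in the same volume of saline, at a dose that the sample labels print as 108 colony-forming units and the paper as 10 to the power 8. Each mouse had 1 one-color array of 60-base probes, and all 8 arrays lay on 1 slide, Co in 1 row and Pg in the other, so that slide row and group cannot be told apart.

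The tissue is labelled as brown adipose tissue (BAT). The probes of *Ucp1*, the uncoupling protein that defines brown fat, and of *Elovl3* were above background on 0 of 8 arrays, while 9 of the 13 brown adipocyte markers and 10 of 10 general adipocyte markers were above background on all 8. *Adrb3* and *Kcnk3* were above background on 5 and 4 arrays. The paper measured *Ucp1* in BAT by quantitative PCR. Whether the probe or the tissue accounts for the missing *Ucp1* signal was not tested. The 15 skeletal muscle markers, among them *Acta1*, *Ckm* and *Myh1*, were also above background on all 8 arrays. The summed signal of the muscle markers was 3085000 to 3326000 in Co mice and 2965000 to 3203000 in Pg mice, so the groups overlapped. Quantile normalization sets much the same values for the brightest probes on every array, so this sum cannot show how alike the muscle content was. *Tnni2* was 18.81 in all 4 Pg mice and 18.81 to 18.84 in Co mice. Of the 15 markers, 1 passed the test, the calcium pump *Atp2a1*, which fell by 0.44 on the log2 scale (limma, adjusted p = 0.0411). Of the 15, 86.7% had a lower mean in Pg mice, against 52.9% of all genes tested. An unadjusted p under 0.05 (limma) was found for 4 of them, or 26.7%, against 20.3% of all genes. The share that passed was 6.67%, against 6.25% of all genes. *Mb* and *Ckm* were each 0.15 lower in Pg mice without overlap of the groups and did not pass (adjusted p = 0.149 and 0.186). The summed adipocyte markers spanned 166200 to 176400 in Co mice and 154700 to 190400 in Pg mice, and the brown adipocyte markers 468900 to 520500 and 514400 to 560400. In Pg mice 8 of 10 adipocyte markers and 6 of 11 tested brown adipocyte markers had a higher mean, and none passed. *Pparg* (0.23) and *Cox7a1* (0.16) were higher without overlap of the groups (adjusted p = 0.158 and 0.141). Of the tested markers, 6 of 7 of macrophages, 5 of 6 of neutrophils and 5 of 6 of cardiac muscle had a higher mean in Pg mice, and 1 of these passed, the cardiac myosin *Myh6* (0.26, adjusted p = 0.0897). Of the other cardiac markers, *Nppb* was above background on 0 arrays and *Myl7* on 1. *Tnni3* differed by -0.30 (adjusted p = 0.3455). The neutrophil genes *S100a8* and *S100a9* differed by 2.16 and 2.04 with overlapping groups (adjusted p = 0.132 and 0.195). The other tested neutrophil markers, *Mpo* (0.22), *Ly6g* (0.09), *Camp* (0.01) and *Elane* (-0.03), did not pass either (adjusted p = 0.493, 0.731, 0.941 and 0.954). *Ngp* was above background on no array and *Retnlg* on 2. The summed macrophage markers were 8037 to 13800 in Co mice and 8047 to 26400 in Pg mice, the neutrophil markers 1386 to 1452 and 1195 to 3373, and the cardiac markers 58710 to 76650 and 57030 to 103800. The part that muscle fibres or these other cells have in the values below was not tested, and fewer cells of a type and less RNA per cell cannot be told apart in bulk tissue. Probes above background numbered 34760 to 35831 per array in Co mice and 31132 to 34063 in Pg mice.

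As background, muscle mass depends on how fast proteins are made and destroyed. Ubiquitin ligases mark proteins for the proteasome: RING ligases such as MuRF1 pass ubiquitin directly from a conjugating enzyme to a substrate, and F-box proteins such as atrogin-1 bring substrates to the SCF complex. FoxO factors switch on the genes of both enzymes when insulin and IGF-1 signaling through AKT is low, and myostatin, acting through activin receptors and SMAD proteins, holds muscle growth down. In fat, *Foxo1* is also known as a regulator of adipocyte differentiation and of the response to insulin.

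Among the *Trim63* probes only A_51_P115335 passed the test, as higher in Pg mice, and the RefSeq probes did not separate the groups. The sequences of 2 *Trim63* probes are therefore shown first, with that of a *Foxo3* probe that passed the test. The probe A_55_P2106745 was designed for the RefSeq transcript NM_001039048 (mm9 chr4:133881557-133881616, + strand). The probe A_51_P115335 was designed for another transcript of the locus, ENSMUST00000134164, and lies 8338 bases upstream on the same strand of mm9. Whether ENSMUST00000134164 is coding, noncoding or intronic is not given in the sources used here. Only its first 30 bases are printed (chr4:133873219-133873248). The *Foxo3* probe A_55_P2506540 reads NM_019740 at chr10:41916349-41916408 on the - strand. No letters are in capitals, since a probe binds over its whole length.
Trim63 A_55_P2106745: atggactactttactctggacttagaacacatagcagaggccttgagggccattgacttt
Trim63 A_51_P115335, first 30 bases: aaacagacaaacaaacaaaaaaccgatcca
Foxo3 A_55_P2506540: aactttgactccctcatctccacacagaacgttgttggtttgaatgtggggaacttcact

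The member probes that passed the test as lower in Pg mice were those of FoxO factors, and neither *Fbxo32* nor the RefSeq transcript of *Trim63* passed the test. With the adjusted p threshold of 0.1, 4 of 16 member probes passed, 3 lower and 1 higher in Pg mice. They are 1 of the 2 *Foxo1* probes, 2 of the 3 *Foxo3* probes and the *Trim63* probe A_51_P115335. Across all tested probes 7.82% passed, 6% lower and 1.82% higher. With the additional demand of a fold change over 1.5, 1 of 16 passed (*Foxo1*), against 1.61% of all probes. The Co and Pg values did not overlap in 7 of 16 member probes, 5 of the 6 FoxO probes and 2 of the 9 ligase probes, against 15.8% of all probes tested. Probes of the same gene are not separate observations.

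**Figure D1:**
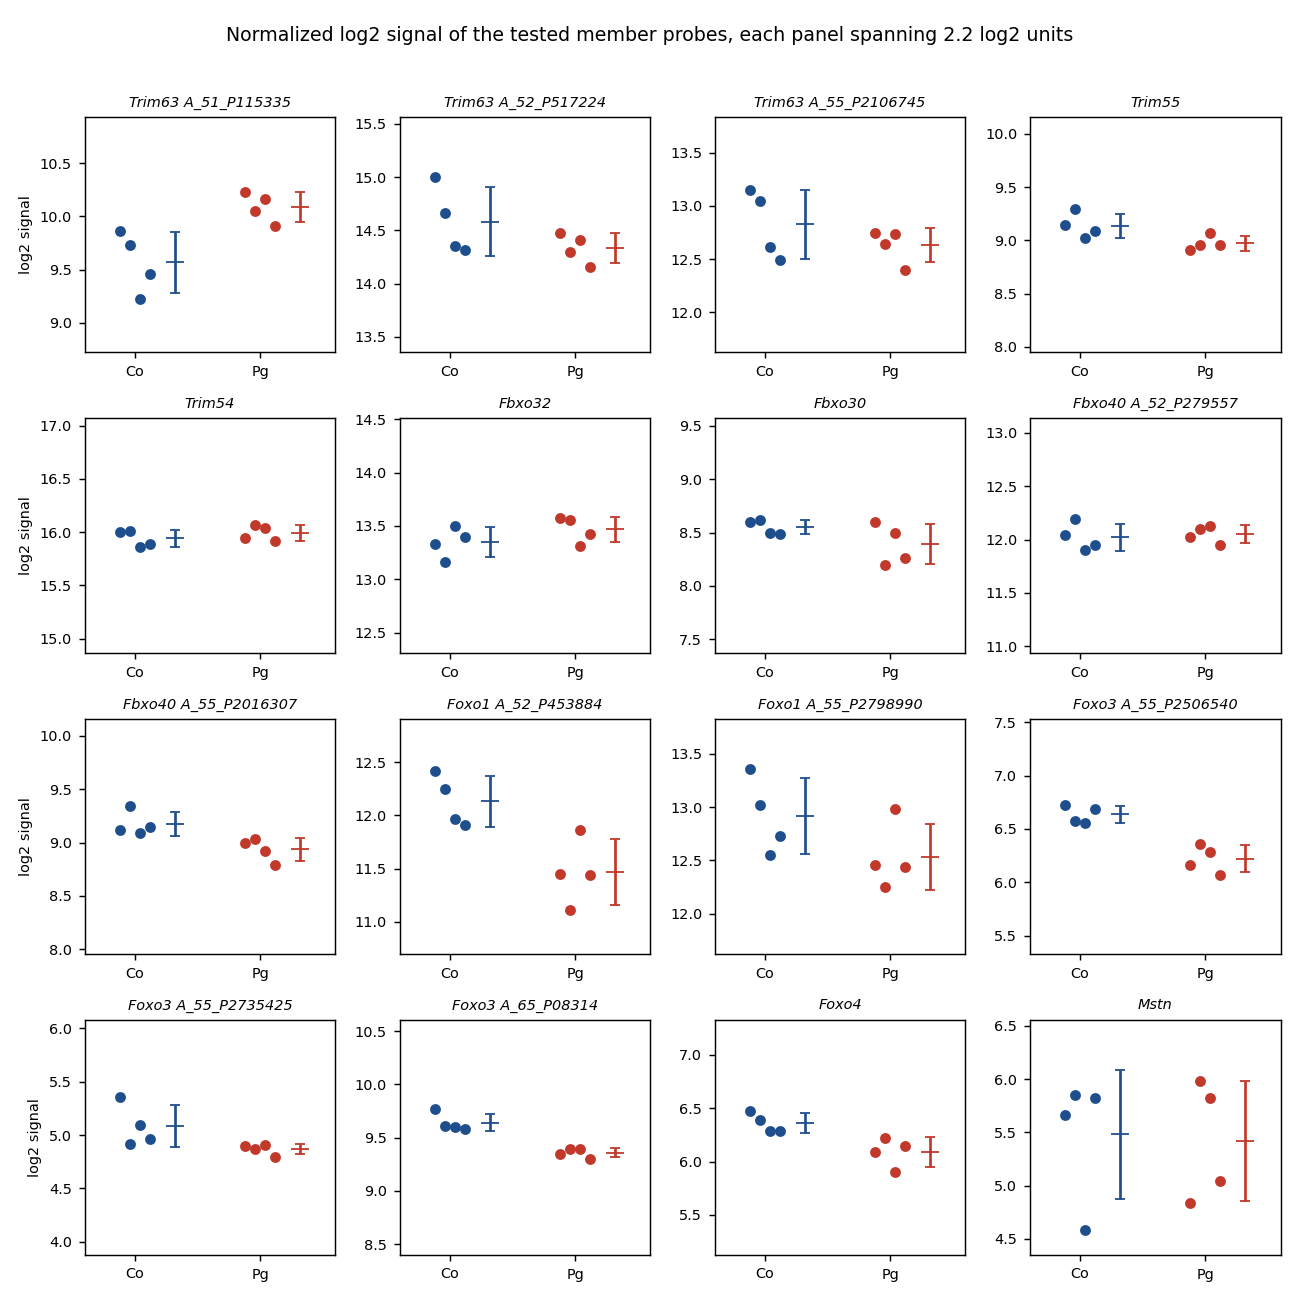
Normalized log2 signal (vertical axis, each panel 2.2 log2 units high) of the 16 tested probes in the 4 Co mice (blue) and the 4 Pg mice (red). Points are single arrays in the order of their replicate numbers, and bars give the mean with 1 SD. The red points lie below all blue points in 5 of the 6 FoxO panels and above them only for *Trim63* A_51_P115335.

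*Foxo1*, the FoxO factor best known for its role in insulin-responsive tissues, had the largest difference of the 16. The log2 signal of probe A_52_P453884 (chr3:52153289-52153348) was 12.41, 12.24, 11.96 and 11.91 in Co mice 1 to 4 and 11.45, 11.12, 11.86 and 11.44 in Pg mice 1 to 4. All Pg values lay below all Co values, with Pg replicate 3 nearest to the Co mice. The probe was 0.66 lower (SE 0.18), a 1.58-fold lower signal in Pg mice, with an adjusted p of 0.0880 (limma, Benjamini-Hochberg over all tested probes). Before normalization between arrays its signal was 3804 to 5689 in Co mice and 2248 to 3683 in Pg mice, without overlap, but the call was lost on these signals (adjusted p = 0.195). It was also lost on the authors' normalized values (-0.54, adjusted p = 0.139), with scaling to the 75th percentile (-0.69, adjusted p = 0.110) and with no filter on dim probes (adjusted p = 0.141). With 1 array left out the difference ran from -0.80 to -0.55. The call held without Pg replicate 3 (adjusted p = 0.0669) and was lost without any other single array, with an adjusted p of up to 0.180 (without Co replicate 2).

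The other *Foxo1* probe, A_55_P2798990, lies 2343 bases upstream on the same chromosome and strand. It was 13.36, 13.02, 12.55 and 12.73 in Co mice and 12.46, 12.25, 12.98 and 12.44 in Pg mice. Here Pg replicate 3 stood within the Co values, and the groups overlapped. The difference of -0.38 (SE 0.21, 95% interval -0.87 to 0.11) did not pass the test (adjusted p = 0.324). It ran from -0.53 to -0.23 with 1 array left out. The mean of both *Foxo1* probes gave -0.52 (SE 0.19, adjusted p = 0.162), which does not pass either.

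*Foxo3*, the factor tied most closely to the atrophy program in muscle, was measured by 3 probes, and in each of them all 4 Pg values lay below all 4 Co values. Probe A_65_P08314, designed for ENSMUST00000105502, gave 9.77, 9.61, 9.60 and 9.58 in Co mice and 9.35, 9.40, 9.39 and 9.30 in Pg mice. This is a narrow spread with a gap between the groups: the difference was -0.28 (SE 0.06), a 1.22-fold lower signal in Pg mice, with an adjusted p of 0.0636 by limma. Probe A_55_P2506540, whose sequence is given above, gave 6.72, 6.58, 6.56 and 6.69 in Co mice and 6.17, 6.36, 6.28 and 6.07 in Pg mice. Its difference was -0.42 (SE 0.08, adjusted p = 0.0553), or 1.34-fold lower.

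The third *Foxo3* probe, A_55_P2735425, reads the 5′ part of the transcript and was dim, at 4.92 to 5.36 in Co mice and 4.80 to 4.91 in Pg mice. Its difference of -0.22 (SE 0.10) had an adjusted p of 0.244. The mean of the 3 *Foxo3* probes was 0.31 lower in Pg mice (SE 0.07, adjusted p = 0.0715) and passed the test. With 1 array at a time left out, the difference of A_65_P08314 stayed between -0.30 and -0.24 and that of A_55_P2506540 between -0.46 and -0.37, while the calls over all tested probes fell from 2644 to between 3 and 2378. In these fits A_65_P08314 passed only without Pg replicate 3 (adjusted p = 0.0851), and its highest adjusted p was 0.133, without Co replicate 2. A_55_P2506540 passed in 4 of the 8 and was lost without Co replicates 2, 3 or 4 or Pg replicate 1 (highest 0.117). On the authors' normalized values the difference of A_55_P2506540 was -0.15, and that of A_65_P08314 was -0.28, with adjusted p of 0.257 and 0.103. The call of A_55_P2506540 was lost as well with median signals and no background subtraction (-0.18, adjusted p = 0.142), with scaling to the 75th percentile (-0.31, adjusted p = 0.111) and without normalization between arrays (-0.26, adjusted p = 0.327). A_65_P08314 was lost in the last of these too (adjusted p = 0.274).

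*Foxo4*, the smaller family member on the X chromosome, was 6.48, 6.39, 6.29 and 6.29 in Co mice and 6.09, 6.22, 5.90 and 6.15 in Pg mice (probe A_51_P200875). The groups did not overlap, and the difference of -0.27 (SE 0.09) had an adjusted p of 0.122, short of the threshold. It was -0.15 with scaling to the 75th percentile or with normexp background correction, and -0.10 without normalization between arrays. All 6 tested FoxO probes thus had a lower mean in Pg mice, with a median of -0.33, where 57.7% of all tested probes had a lower mean and their median was -0.04. Several of these probes read the same gene on the same arrays, so they are not separate observations. As the mean over its probes, *Foxo3* passed the test and *Foxo1* did not. Each of the 6 stayed negative under every other setting that could be fitted and with each array left out, the value closest to 0 being -0.02 for *Foxo3* A_55_P2735425 without normalization between arrays. Dim probes leaned further that way. Of the 12566 tested probes with a mean log2 signal under 7, where *Foxo4* and 2 of the *Foxo3* probes lie, 64.3% were lower in Pg mice and 7.09% passed the test as lower. Between 7 and 10, where *Foxo3* A_65_P08314 lies, these shares were 57.7% and 6.65%. Between 10 and 13, where A_52_P453884 lies, they were 51.2% and 4.33%. The part of signal level in the values of the FoxO probes was not tested.

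**Figure D2:**
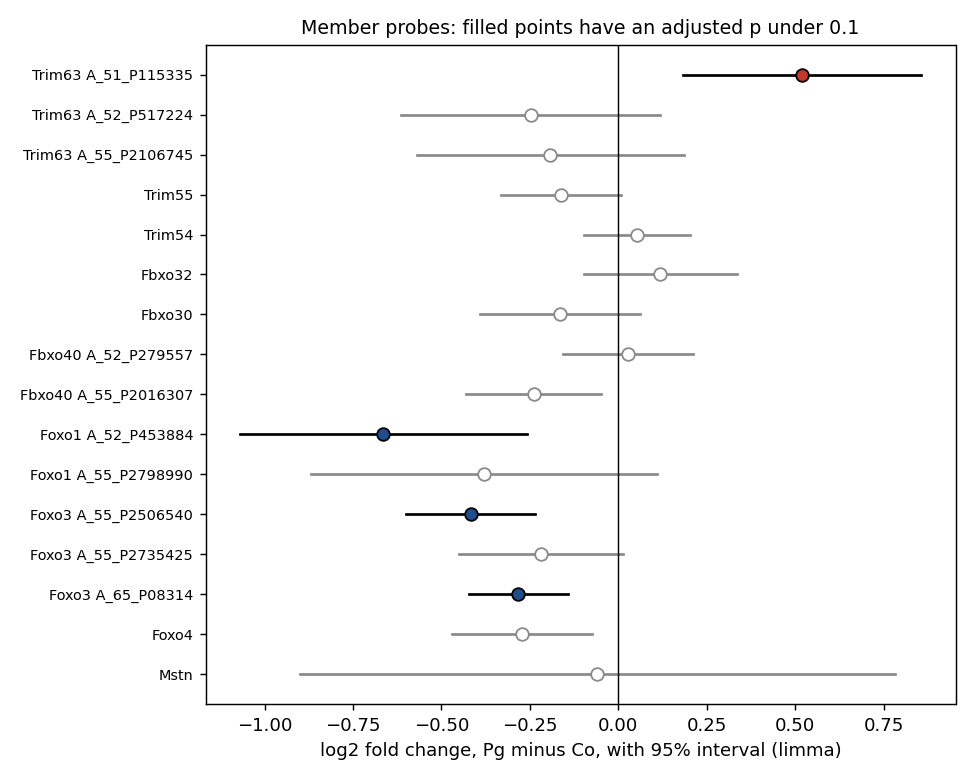
Difference in log2 signal between Pg and Co mice (horizontal axis) for each of the 16 tested probes, with its 95% interval from limma. Filled points passed the test at an adjusted p under 0.1, blue where lower and red where higher in Pg mice. The intervals of 3 FoxO probes and of *Trim63* A_51_P115335 lie away from 0 with a filled point, and those of *Fbxo32*, *Fbxo30*, *Trim54* and *Trim55* include 0.

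Among the RING ligases, *Trim63* did not pass the test on the probes of its RefSeq transcript. MuRF1 ubiquitinates proteins of the thick filament in wasting muscle. Probe A_52_P517224 gave 15.00, 14.66, 14.36 and 14.31 in Co mice and 14.47, 14.29, 14.41 and 14.16 in Pg mice. The Pg values lay at the lower Co values or just below them, and the difference of -0.25 (SE 0.16, 95% interval -0.61 to 0.12) had an adjusted p of 0.391. Leaving out 1 array gave differences from -0.34 to -0.11, the last without Co replicate 1. The other RefSeq probe, A_55_P2106745, gave 13.15, 13.05, 12.62 and 12.49 in Co mice and 12.75, 12.64, 12.74 and 12.40 in Pg mice. Its difference was -0.19 (SE 0.16, 95% interval -0.57 to 0.18, adjusted p = 0.518). This value was -0.30 without Co replicate 4 and -0.09 without Co replicate 1. Both intervals leave room for a signal well below that of Co mice, and for one slightly above it.

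The probe of the other *Trim63* transcript was higher in Pg mice. A_51_P115335 was 9.86, 9.73, 9.22 and 9.45 in Co mice and 10.23, 10.05, 10.16 and 9.91 in Pg mice, with all Pg values above all Co values. It rose by 0.52 (SE 0.15), or 1.43-fold, with an adjusted p of 0.0989, just inside the threshold. Leaving out 1 array kept the call only without Co replicate 1 (adjusted p = 0.0998), and the highest value was 0.187, without Pg replicate 1. The call was also lost with scaling to the 75th percentile (adjusted p = 0.131), with no filter on dim probes (0.154) and without normalization between arrays (0.197). Before normalization the signal was 606 to 960 in Co mice and 942 to 1264 in Pg mice, which overlap.

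Set against the RefSeq probe A_52_P517224 on the same array, A_51_P115335 stood at -5.14, -4.93, -5.13 and -4.86 log2 units in Co mice 1 to 4 and at -4.25, -4.24, -4.25 and -4.25 in Pg mice. The 4 Pg mice were thus nearly alike in this ratio, and the distance between the 2 probes had shortened by 0.77 log2 units. An exact two-sided permutation test of the 70 splits gave p = 0.0286, the smallest that 4 against 4 allow, and 0.0571 after adjustment over the 8 pairs of probes compared. The same ratio against A_55_P2106745 changed by 0.71 (exact p = 0.0286, adjusted 0.0571). The ratio of the 2 RefSeq probes to each other overlapped between the groups, at 1.76 ± 0.11 (SD, n = 4) in Co mice and 1.70 ± 0.05 in Pg mice (exact permutation p = 0.371). Averaged over its 3 probes, *Trim63* gave 0.03 (SE 0.15, adjusted p = 0.934), a value that stands for none of them.

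**Figure D3:**
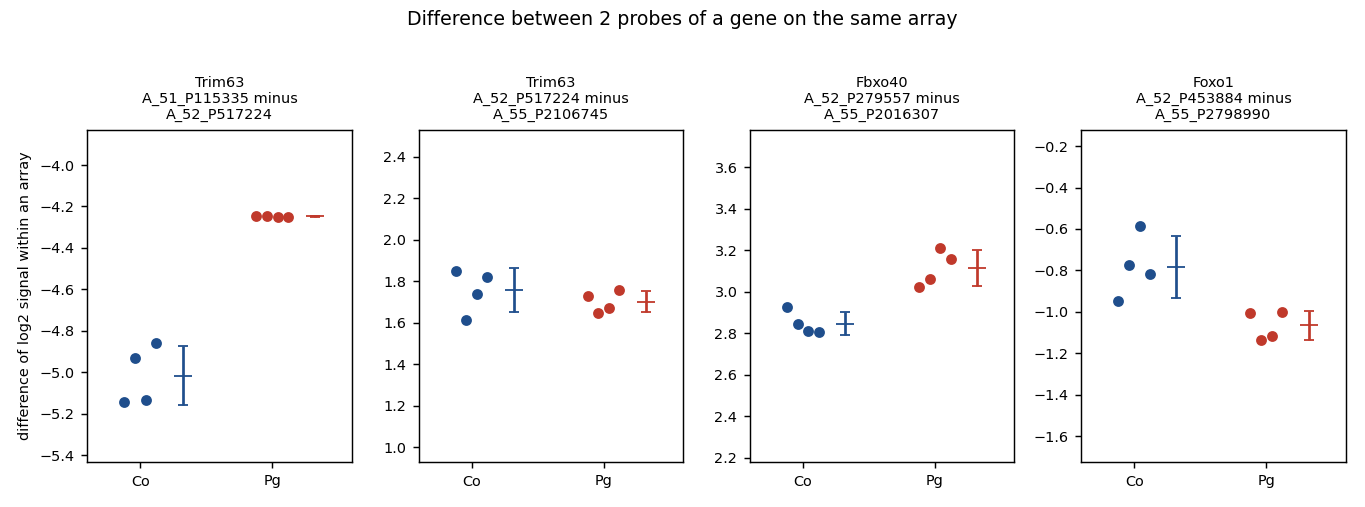
Difference in log2 signal between 2 probes of the same gene on the same array (vertical axis, each panel 1.6 log2 units high) in Co mice (blue) and Pg mice (red), with the mean and 1 SD at the side. The ratio of the other-transcript probe to the RefSeq probe A_52_P517224 of *Trim63* was higher in all 4 Pg mice than in all 4 Co mice, and that of the 2 RefSeq probes overlapped. In *Fbxo40* and *Foxo1* the 2 probes also changed unequally.

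*Trim54* and *Trim55* encode the MuRF proteins that bind microtubules, titin and the Z-disc region. *Trim54* was 16.00, 16.01, 15.86 and 15.89 in Co mice and 15.94, 16.07, 16.04 and 15.92 in Pg mice. The groups coincided, with a difference of 0.05 (SE 0.06, 95% interval -0.10 to 0.20, adjusted p = 0.662). *Trim55* was 9.14, 9.29, 9.02 and 9.08 in Co mice and 8.91, 8.96, 9.07 and 8.96 in Pg mice. Only Pg replicate 3 reached the Co values, and the difference of -0.16 (SE 0.07) had an adjusted p of 0.240.

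Among the F-box subunits, *Fbxo32*, whose product atrogin-1 targets MyoD and the translation factor eIF3f, showed no shift that the test could separate from the spread. It was 13.33, 13.16, 13.50 and 13.40 in Co mice and 13.57, 13.55, 13.32 and 13.43 in Pg mice. The highest values were those of Pg replicates 1 and 2, and the groups overlapped. The difference was 0.12 (SE 0.09, 95% interval -0.10 to 0.33, adjusted p = 0.485), so that a change of up to 0.33 log2 units upward remains within the interval. With 1 array left out the difference ran from 0.06, without Co replicate 2, to 0.17. *Fbxo30*, the ubiquitin ligase subunit MUSA1 that BMP signaling holds down in muscle, was 8.60, 8.62, 8.50 and 8.49 in Co mice and 8.60, 8.20, 8.49 and 8.26 in Pg mice. Pg replicates 2 and 4 were low and the other two were at the Co level (difference -0.16, SE 0.10, adjusted p = 0.357).

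*Fbxo40*, a muscle-specific F-box protein that targets the insulin receptor substrate IRS1, had 2 probes that read differently. A_55_P2016307 was 9.12, 9.35, 9.09 and 9.14 in Co mice and 8.79 to 9.04 in Pg mice. All Pg values were below all Co values, yet the difference of -0.24 (SE 0.08) had an adjusted p of 0.146. A_52_P279557, designed for ENSMUST00000075869 which lies 1664 bases downstream in the genome, was 11.90 to 12.19 in Co mice and 11.95 to 12.13 in Pg mice, with a difference of 0.03 (SE 0.08, adjusted p = 0.865). Its sign turned with scaling to the 75th percentile. The ratio of the 2 *Fbxo40* probes rose in Pg mice by 0.27 log2 units with no overlap (exact permutation p = 0.0286, adjusted 0.0571 over the 8 pairs), and that of the 2 *Foxo1* probes changed by -0.28 (exact p = 0.0286, adjusted 0.0571). None of the 3 pairs of *Foxo3* probes had an adjusted p under 0.1 in the exact permutation test (0.137 to 0.371).

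*Mstn* was near the limit of detection. Its probe was above background on 4 of 4 Co arrays and 3 of 4 Pg arrays, at 5.66, 5.85, 4.59 and 5.82 in Co mice and 4.84, 5.98, 5.83 and 5.04 in Pg mice. Low and high values occurred in both groups, and the difference of -0.06 (SE 0.36, 95% interval -0.90 to 0.78, adjusted p = 0.937) excludes neither a rise nor a fall of sizeable extent. Its sign turned with scaling to the 75th percentile (0.09) and without normalization between arrays (0.14).

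**Figure D4:**
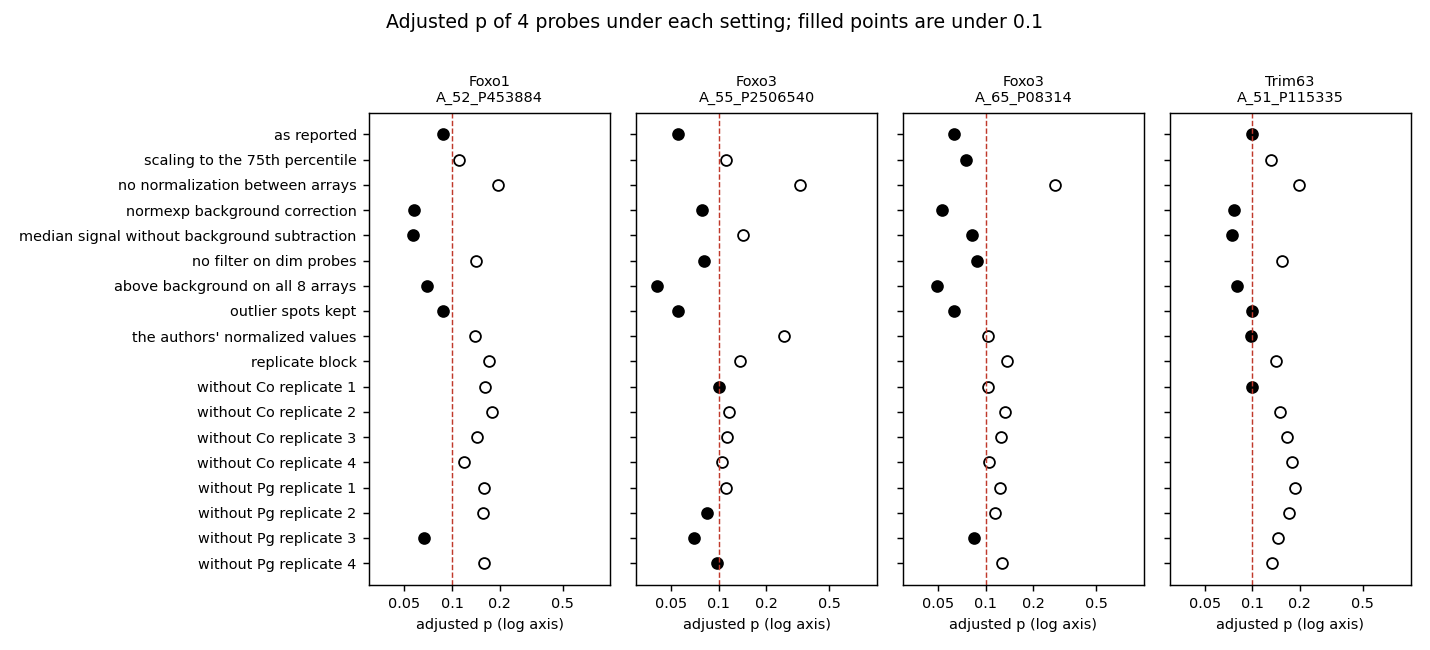
Adjusted p (horizontal log axis) of the 4 member probes that passed the test, under each processing setting and with each array left out. The dashed line is the threshold of 0.1 and filled points are below it. *Foxo1* A_52_P453884 and *Foxo3* A_65_P08314 were below it in 1 of the 8 fits that dropped an array, as was *Trim63* A_51_P115335, and *Foxo3* A_55_P2506540 in 4.

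The promoter of *Trim63* is shown because FoxO factors are known to act on this gene, and because the FoxO probes and the *Trim63* probes are set side by side here. RefSeq's table for GRCm38.p6 gave promoters for 7 of the 10 genes. The forkhead-type motif GTAAACA, searched on both strands of the stretch around each start, was found in *Trim63* alone among the 7 genes, and in 3.65% of all 32851 promoters in the table. In *Trim63* it reads on the opposite strand, 194 to 188 bases before the start, and stands in capitals in the 250 bases before the start (GRCm38.p6 chr4:134314870-134315119, + strand). A match of letters is a description of the sequence and no evidence of binding.
Trim63 promoter: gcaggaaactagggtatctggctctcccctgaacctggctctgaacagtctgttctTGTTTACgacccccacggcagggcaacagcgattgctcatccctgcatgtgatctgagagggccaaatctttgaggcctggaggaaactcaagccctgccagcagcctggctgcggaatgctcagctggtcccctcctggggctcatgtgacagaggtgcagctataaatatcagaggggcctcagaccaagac

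Genes around the members were read from 5 lists, with the brightest tested probe of each gene, and 6.25% of all 22454 genes passed the test. Of 30 FoxO target and atrophy genes, 1 passed, upward: *Tgif1*, a corepressor of TGF-β signaling, was 8.80 on average in Co mice and 9.07 to 9.48 in Pg mice, without overlap (0.48, SE 0.13, adjusted p = 0.0915). The list had a median difference of -0.03, against -0.01 for all genes. The remaining 29 did not pass. The kinase *Pdk4*, a FoxO target that spares glucose, differed by 0.06 (adjusted p = 0.632), the autophagy gene *Gabarapl1* by 0.13 (adjusted p = 0.634), and the transcription factor gene *Klf15* by -0.34 (adjusted p = 0.134).

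Of 29 tested genes of the insulin, IGF, AKT and AMPK inputs to FoxO, 1 passed, downward. *Ep300*, an acetyltransferase that modifies FoxO proteins, was 9.15 to 9.45 in Co mice and 8.65 to 8.88 in Pg mice (-0.53, SE 0.09, adjusted p = 0.0439). Another 8 had an unadjusted p under 0.05 without passing, among them the insulin receptor *Insr* at -0.25 and its substrate *Irs1* at 0.35, in opposite directions. Together with *Ep300* these were 31% of the list, against 20.3% of all genes. The median of the list was -0.03. *Akt1* (-0.08), *Akt2* (-0.0018) and *Igf1* (-0.03) had adjusted p of 0.457, 0.989 and 0.887.

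Of 28 tested genes of the myostatin and activin pathway, 2 passed, both higher in Pg mice. *Furin*, a protease that cleaves the precursors of TGF-β ligands, was 17.51 to 17.67 in Co mice and 17.81 to 17.85 in Pg mice (0.24, SE 0.06, adjusted p = 0.0695). With scaling to the 75th percentile its difference was 0.11 (adjusted p = 0.472). *Inhbb*, the activin beta-B subunit, was 7.87 to 8.28 in Co mice and 8.36 to 8.50 in Pg mice (0.37, SE 0.09, adjusted p = 0.0771). The list's median was 0.11. The receptor *Acvr2b*, through which myostatin acts, differed by 0.26 (adjusted p = 0.184), and its signal transducer *Smad3* by -0.20 (adjusted p = 0.164).

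Of 38 other muscle ubiquitin ligases and SCF partners, 2 passed, in opposite directions, and the median was 0.01. *Asb15*, a muscle-enriched ankyrin repeat and SOCS box protein, was 6.93 to 7.39 in Co mice and 5.87 to 6.63 in Pg mice (-0.90, SE 0.18, adjusted p = 0.0573), the largest difference of the passing genes in the 5 lists. With normexp background correction it was -0.58 (adjusted p = 0.0322). *Fbxw7*, an F-box protein that targets growth regulators such as MYC, was 11.38 to 11.62 in Co mice and 11.64 to 11.82 in Pg mice (0.30, SE 0.08, adjusted p = 0.0796). The SCF core genes *Cul1* (-0.07), *Skp1* (-0.10) and *Rbx1* (0.01) did not pass, with adjusted p of 0.556, 0.300 and 0.948.

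Of 24 substrates and binding partners of the ligases, 1 passed, downward: *Nbr1*, an autophagy receptor that links the kinase of titin to MuRF2, was 9.30 to 9.40 in Co mice and 8.90 to 8.99 in Pg mice (-0.40, SE 0.05, adjusted p = 0.0398). The median was -0.04. The MuRF1 substrates *Ckm* (-0.15) and *Myh2* (0.06) and the atrogin-1 substrate *Eif3f* (-0.04) had adjusted p of 0.186, 0.646 and 0.742. All 5 lists had shares of passing genes between 3.33% and 7.14%, near the share of all genes. At an unadjusted p under 0.05 the shares were 13.3% of the FoxO targets, 31% of the insulin inputs, 32.1% of the myostatin pathway, 21.1% of the other ligases and 16.7% of the substrates, against 20.3% of all genes.

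The calls in these lists differed in how they stood up to leaving out 1 array. *Ep300* and *Nbr1* passed in 7 of 8 such fits and were lost without Co replicate 3 (adjusted p = 0.108 and 0.107). *Asb15* passed in 3 of 8, and was lost without any of the 4 Co mice or without Pg replicate 1 (highest 0.129). *Tgif1* passed only without Pg replicate 3, *Furin* only without Co replicate 1 and *Fbxw7* only without Co replicate 4, with adjusted p of up to 0.184, 0.146 and 0.167 in the other fits. *Inhbb* passed in 0 of 8 (adjusted p of 0.108 to 0.166). On the authors' normalized values *Tgif1*, *Furin* and *Fbxw7* did not pass (adjusted p = 0.112, 0.111 and 0.175), nor did *Tgif1* and *Fbxw7* with scaling to the 75th percentile (0.110 and 0.104). With no filter on dim probes *Tgif1*, *Inhbb* and *Fbxw7* did not pass (0.142, 0.118 and 0.116), and without normalization between arrays none of the 7 genes did.

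**Figure D5:**
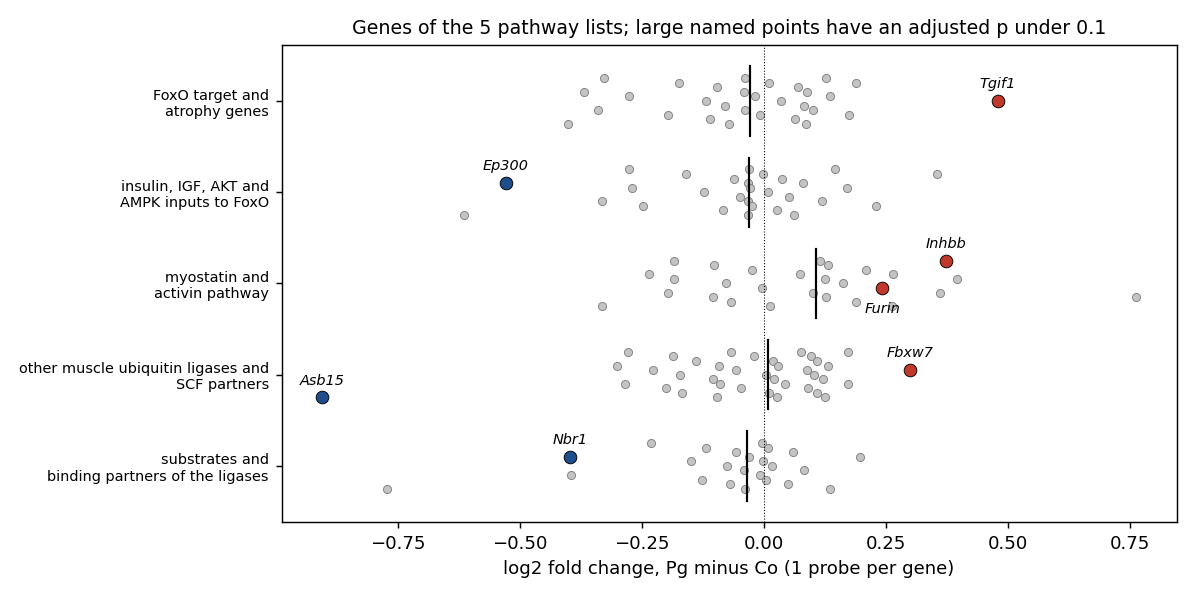
Log2 fold change between Pg and Co mice (horizontal axis) of each tested gene in the 5 lists around the members, 1 point per gene. Large named points passed the test (red higher, blue lower in Pg mice), and black lines are list medians, which run from -0.04 to 0.11.

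The patterns most like those of *Trim63* and *Fbxo32* over the 8 arrays were sought among 19752 genes above background on all of them, by the root mean square difference of mean-centred log2 values. The closest to *Trim63* (A_52_P517224, whose own SD was 0.26) were the transcript AK033299 at 0.05, *Catip* at 0.08 and a probe named only by its position on chromosome 13 at 0.08. The closest to *Fbxo32* (own SD 0.14) were *Tchp* at 0.05, *Zfp93* at 0.05 and *Zbtb24* at 0.06. These distances describe likeness on these 8 arrays only.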

How the data were processed

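RNA of 4 Co and 4 Pg mice was read on one-color mouse arrays. The authors deposited the output of Agilent Feature Extraction 11.0.1.1, which holds the intensity of each spot (a processed signal, background-subtracted and detrended, and the raw mean, median and background signals), not normalized between arrays. They also deposited 28067 entries of quantile-normalized log2 values, with medians of 8.08 to 8.10, which served as an alternative; these hold 13 of the 17 member probes. Its columns of fold changes, p-values and q-values were not used.

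Of 59305 spots that are not controls, population outliers were left out. Processed signals were averaged per probe, quantile-normalized, raised to at least 1 and log2-transformed. Probes that stood well above background on 4 or more arrays were compared with limma 3.58.1 in R 4.3.3, two-sided, with Benjamini-Hochberg adjustment over 33819 probes. The study's methods join q under 0.1 with a fold over 1.5; here q under 0.1 alone was the call, and the joint rule is given beside it. Single ratios had exact permutation tests. The number of arrays limits the precision. Each replicate is 1 mouse. The pipeline was tested on simulated data.

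All member probes are named. Of each list, up to 5 genes with the smallest adjusted p among those called were fixed by rule. Other list genes, such as *Pdk4* and *Skp1*, were named after their values were seen. The members and lists were chosen with earlier results of these data known. Lists used the reference symbol of the probe's accession (32994 of 56605 probes), else the array's own name. Alternatives were other scaling, background correction and filters, outlier spots kept, the authors' values, a replicate block, and each array left out. Probe coordinates are those of the array files (mm9), and promoters those of GRCm38.p6; positions were not converted.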

Additional observations from a re-analysis of the deposited data

Results flagged for a closer look

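A Dixon test at the 95% level, run within each group of 4 for the tested member probes and the named list genes, marked 2 of 46 groups. Chance marks about 1 in 20 groups. The log2 signal of *Foxo3* A_65_P08314 in Co replicate 1 was 9.77, where the other Co mice lay between 9.58 and 9.61. The log2 signal of *Mstn* in Co replicate 3 was 4.59, where the other Co mice lay between 5.66 and 5.85.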

How the results depend on the processing

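Counts are given for the member probes with q under 0.1, those that also had a fold over 1.5, and then the lists of FoxO targets, insulin and AKT inputs, myostatin pathway, other ligases and substrates; as reported they were 4, 1, 1, 1, 2, 2 and 1. Scaling to the 75th percentile gave 1, 0, 0, 1, 1, 1 and 1. They were 2, 0, 0, 1, 1, 1 and 1 with no filter on dim probes and 1, 0, 0, 1, 1, 2 and 2 on the authors' normalized values. They were 5, 1, 1, 4, 5, 4 and 2 with normexp background correction, 3, 1, 2, 3, 6, 1 and 2 with median signals and no background subtraction, and 4, 1, 1, 1, 4, 3 and 1 for probes above background on all 8 arrays. Without normalization between arrays all 7 counts were 0 in limma, with 29 calls among all probes, and 4 member probes and 15.2% of all probes at an unadjusted p under 0.05. Over all probes the share called, 7.82% as reported, was 4.57% with the 75th percentile, 2.24% with no filter, 6.11% on the authors' values, 10.2% with normexp, 9.06% with median signals and 10.3% for probes above background on all 8 arrays. With outlier spots kept no count moved. The fit with the replicate number as a block left 0 in all 7 counts and 0 calls over all probes. In that fit 6 member probes and 21.9% of all probes had an unadjusted p under 0.05. Deviations of same-numbered mice had correlations of -0.07 to 0.18. The Co mice of replicates 1 and 4 correlated most with the Pg mouse of their own number, and those of replicates 2 and 3 did not. Whether same-numbered samples share more than a number was not tested. With 1 array left out the counts ranged from 0 to 3, 0 to 1, 0 to 2, 0 to 2, 0 to 1, 0 to 1 and 0 to 1; without Co replicate 3 all were 0, and 3 of all probes were called.

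Of 412 refits of single genes, 12 turned the sign, in values that did not pass the test. *Fbxo40* A_52_P279557 was -4e-04 with scaling to the 75th percentile and -0.11 as the mean over the probes of the gene, which was 0.0262 for *Trim63* against its 2 lower probes. With 1 array left out, the *Fbxo40* probe ranged from -0.0123, without Co replicate 3, to 0.0826. *Mstn* was 0.0875 under scaling to the 75th percentile and 0.14 without normalization, and with 1 array left out it ranged from -0.36 to 0.14, positive without Co replicates 1, 2 or 4 (0.0017, 0.06 and 0.06) and Pg replicates 1 or 4 (0.14 and 0.07). A call was lost in 104 refits and gained in 2, *Fbxo40* A_55_P2016307 with normexp (adjusted p = 0.0929) and *Foxo3* A_55_P2735425 as the mean of its gene; the cause was not tested. In the exact permutation test 3 member probes without a call had an unadjusted p of 0.0286. The dim signals of *Mstn*, *Foxo4* and 2 *Foxo3* probes limit what their values show.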
